A study of Bos taurus with 20 samples.

Results

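The miR-23, miR-27 and miR-24 rows of a small RNA sequencing table from bull spermatozoa were examined. A row was taken when its name, with or without an arm suffix, was bta-miR-23a, bta-miR-23b, bta-miR-24, bta-miR-27a or bta-miR-27b. This gave 8 of the 1029 miRNA rows: bta-miR-23a, bta-miR-23b-3p, bta-miR-23b-5p, bta-miR-24, bta-miR-24-3p, bta-miR-27a-3p, bta-miR-27a-5p and bta-miR-27b. The names chose the members and their values did not, though the names were set with earlier results of these data known. The libraries came from mature Holstein-Friesian bulls used in artificial insemination, 10 of high fertility (HF) and 10 of low fertility (LF) by an adjusted fertility score, with no treatment. Each bull gave 1 library, made from RNA of frozen-thawed sperm pooled over several ejaculates, so a value is an average over the ejaculates of that bull. The 20 libraries hold mature sperm RNA in bulk, where fewer cells that carry a miRNA and less of it per cell cannot be told apart.

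These miRNAs come from a pair of related clusters. In each, a miR-23, a miR-27 and a miR-24 hairpin lie next to each other and are generally transcribed as a common precursor, from which the hairpins are cut out and each hairpin gives a 5p and a 3p arm. Usually the 3p arm is the one loaded into Argonaute to silence target mRNAs, and the other arm is degraded. The a cluster carries miR-23a, miR-27a and a copy of miR-24, and the b cluster carries miR-23b, miR-27b and the other copy of miR-24. The mature 3p arm of miR-24 is the same in both copies, so bta-miR-24-3p cannot be assigned to a cluster. The clusters are best known from blood vessels, blood cells, muscle and fat, where miR-27 restrains adipocyte formation through PPARG and miR-24 acts on genes of the cell cycle. The RefSeq annotation of ARS-UCD2.0 was used for gene order alone, since the authors aligned to ARS-UCD1.2. In it, MIR23A, MIR27A and MIR24-2 stand in that order inside LOC132345691, which is annotated as protein-coding. They lie between NANOS3, a germ cell RNA-binding factor, and ZSWIM4. MIR23B, MIR27B and MIR24-1 stand inside AOPEP, an aminopeptidase gene, between MIR2475 and FANCC, a DNA repair gene.

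The values are normalized counts, which are reads scaled to the size of the library, on the scale of CPM, and divided by a normalization factor (TMM). The reads behind them were recovered from the size of the steps between low values. They numbered 103204 to 3097581 per library (median 1092881). The shallowest libraries were HF 17, with 103204 reads, LF 11, with 310186, and LF 13, with 438649. Of the marker lists used to check the sample, the germ cell and sperm list (5 miRNAs of the miR-34 and miR-449 families) summed to normalized counts between 25829 and 77203 per library. The epithelial list (6 miRNAs, mainly of the miR-200 family) summed to 6544 to 13137 in HF and 9680 to 15554 in LF libraries, and the leukocyte and blood list (6 miRNAs) to 65.9 to 239 and 51.2 to 301. The endothelial and stromal list (7 miRNAs) summed to 147 to 1941 in HF and 186 to 2320 in LF, and the muscle list (5 miRNAs) to 441 to 685 and 386 to 859. bta-miR-144, bta-miR-214 and bta-miR-133b, which belong to the blood, stromal and muscle lists, were at 0 in at least 10 bulls. In these lists, bta-miR-142-3p was at 0 in 6 libraries, bta-miR-223 in 4, bta-miR-126-5p in 3 and bta-miR-145 in 8. bta-miR-199a-5p was at 0 in 1 library, bta-miR-133a in 2 and bta-miR-206 in 4. The remaining members of these lists were above 0 in every library. The most abundant were bta-miR-142-5p (blood), bta-miR-143 (stromal) and bta-miR-499 (muscle), with mean normalized counts of 92.6, 439 and 527. Of the list members tested with limma, 5 of 5 of the germ cell and sperm list, 3 of 5 of the leukocyte and blood list, 4 of 5 of the endothelial and stromal list, 3 of 4 of the muscle list and 0 of 6 of the epithelial list had the higher mean in HF. An unadjusted p-value under 0.05 was found for 2 of the epithelial list and 0 of the others, against 3.45% of all miRNAs tested, and 0 passed the fold change threshold of 1.5 as well.

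The miR-27 rows held nearly all of the signal of the clusters. Together the 8 rows made up 4.50% ± 0.822 (SD, n = 20) of the normalized counts of a library, from 2.93% in LF 11 to 5.67% in HF 14. Of this sum, the miR-27 rows gave 94.8% ± 1.38 (SD, n = 20), the miR-24 rows 3.60% ± 1.12 and the miR-23 rows 1.61% ± 0.452. The a cluster without miR-24 gave 59.5% ± 4.89 of it, and the b cluster without miR-24 gave 36.9% ± 4.10.

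bta-miR-27a-3p ranked 7th of all miRNAs by mean level. Its normalized count was 26518 ± 6463 (SD, n = 20). In HF bulls the lowest was 13438, the median 26380 and the highest 38771, and in LF bulls the lowest was 14456, the median 27433 and the highest 35826. The lowest value of each group stood in its shallowest library, HF 17 and LF 11, and the ranges of the groups overlapped over most of their length. bta-miR-27b ranked 13th, with 16168 ± 2187 (SD, n = 20). Its HF values lay between 13974 and 19844 (median 15621) and its LF values between 11163 and 19472 (median 15645). It varied less between bulls than the other members, with a coefficient of variation of 13.5% against 24.4% for bta-miR-27a-3p. The highest values of both miRNAs came from the same bulls, HF 10 and LF 1.

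bta-miR-24-3p, the mature miR-24 shared by both clusters, had the third highest level at 1330 ± 241 (SD, n = 20) and ranked 55th. The HF values lay between 1103 and 1642 (median 1233) and the LF values between 986 and 1850 (median 1302), so that both the lowest and the highest bull belonged to LF. A further row is named bta-miR-24 with no arm, and what it counts apart from the 3p row is not given in the sources used here. It stood at 216 ± 54.6 (SD, n = 20), from 116 in HF 14 to 364 in HF 2, with group medians of 224 in HF and 212 in LF. In HF 2 the germ cell and sperm list also had its highest sum of the 20 libraries, 77203, and whether this bears on the miR-24 value was not tested. The normalized counts of HF 2 had the largest total of the 20 libraries as well, 1233720. As a share of the total of its library, bta-miR-24 was 0.0295% in HF 2, under the 0.0305% of LF 13.

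bta-miR-23a had 534 ± 179 (SD, n = 20) and ranked 84th. In HF its lowest value was 423, its median 507 and its highest 1112, and in LF these were 375, 440 and 896. HF 14 and LF 18 stood above all other bulls, whose highest value was 630. HF 14 was counted at 1462 reads of bta-miR-23a, so its height does not rest on a few reads. Its marker sums were 13137 for the epithelial list, the highest of the HF libraries and the 4th of all, and 821 for the endothelial and stromal list, the 5th of all. Those of LF 18 were 11945, the 8th, and 238, the 18th, and no list had its highest sum in either library. bta-miR-23b-3p followed at 171 ± 34.8 (SD, n = 20), from 129 to 268 in HF (median 165) and from 142 to 235 in LF (median 164). HF 14 and LF 18 were the highest of their group here too.

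The remaining arms were rare. bta-miR-23b-5p had a normalized count of 4.25 ± 1.73 (SD, n = 20), from 0.895 to 6.76, and rested on 88 reads over all libraries. bta-miR-27a-5p had 1.18 ± 1.24 (SD, n = 20) on 28 reads over all libraries. It was at 0 in 4 HF and 3 LF libraries, in which 3 reads would be a normalized count between 2.70 and 27.6. With a value under 1 in at least 10 bulls, it was the only member that failed the filter on low values, which 7 of 8 members and 435 of 1029 miRNAs passed.

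**Figure D1:**
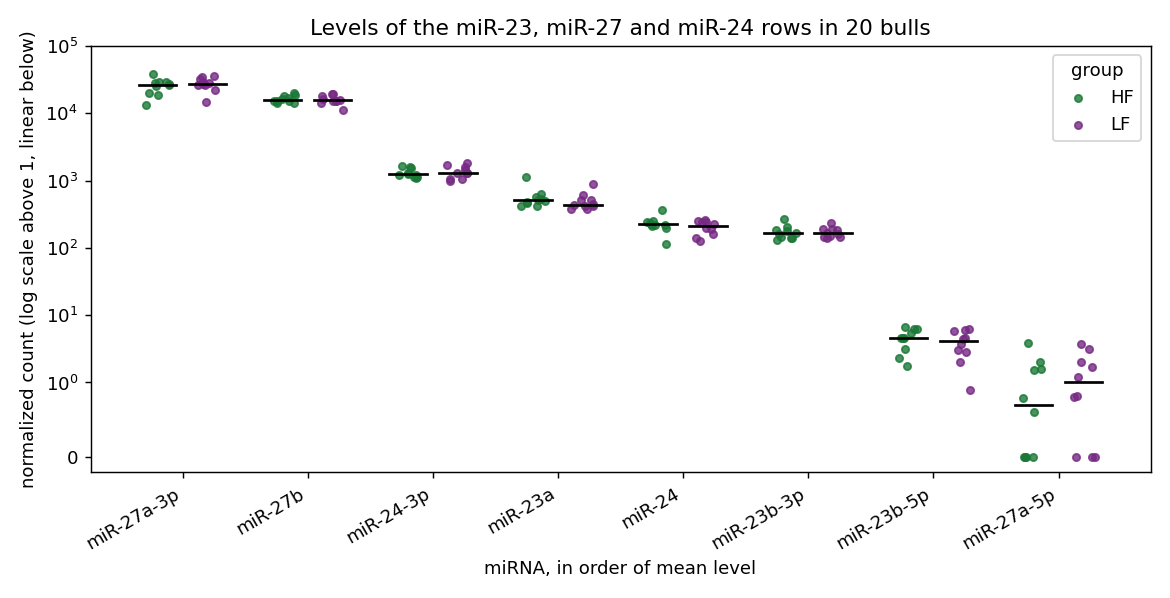
Normalized count of each of the 8 miRNAs (vertical axis, logarithmic above 1 and linear below) in 10 HF and 10 LF bulls. Each point is 1 bull and each black line is the group median. miR-27a-3p and miR-27b sit highest, at 11163 or more, miR-27a-5p sits lowest, HF and LF overlap for every miRNA, and HF 14 (1112) and LF 18 (896) are the high points of miR-23a.

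Neighbours in the order of levels were compared within each bull by a two-sided permutation test that flips the sign of the log2 difference, with Benjamini-Hochberg adjustment over the 7 neighbouring pairs. bta-miR-27a-3p was above bta-miR-27b in 19 of 20 bulls, the exception being HF 17, the shallowest library. bta-miR-24 and bta-miR-23b-3p were the closest, with a log2 difference of 0.31 ± 0.52 (SD, n = 20) in the order of their means in 15 of 20 bulls (adjusted p = 0.016). For the other pairs the order held in 17 bulls or more, with adjusted p-values of at most 8.2e-05. All 7 differences passed the test. The order was taken from the means of these same values, so the test describes how steady it was over bulls and is no independent support.

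The study compared sperm RNA of bulls of high and low fertility, and the levels of these miRNAs did not differ detectably between the groups. Of the 7 members tested with limma on log2(normalized count + 1), 0 passed the thresholds of the study, a fold change over 1.5 together with an unadjusted p-value under 0.05. Over all 435 miRNAs tested, 2.07% passed both. An unadjusted p-value under 0.05 was reached by 3.45%, of which 1.61% were higher and 1.84% lower in HF, and 0% had an adjusted p-value under 0.05. Of the members, 0 had an unadjusted p-value under 0.05, the smallest being 0.378. The same count of 0 was found with edgeR's likelihood ratio test, edgeR's quasi-likelihood test and DESeq2 on the recovered reads. In HF, 4 members had the higher fitted mean and 3 the lower. The median log2 fold change of the 7 was 0.034, against 0.0051 over all miRNAs, and the median of their absolute values was 0.12, against 0.20.

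bta-miR-27a-3p, the most abundant, had a log2 fold change of -0.12 in HF over LF (SE 0.17, 95% interval -0.47 to 0.24, limma adjusted p = 0.96). Leaving out HF 17 it was -0.022, and leaving out LF 11 it was -0.22, with neither past the thresholds. bta-miR-27b had 0.034 (SE 0.11, 95% interval -0.20 to 0.26), the narrowest interval of the members. A difference of 1.5-fold lay outside both intervals. For bta-miR-24-3p, the log2 fold change was -0.030 (SE 0.14), and for bta-miR-24 it was 0.15 (SE 0.18). bta-miR-23a had 0.16 (SE 0.18, 95% interval -0.21 to 0.54). Leaving out HF 14, the log2 fold change of bta-miR-23a was 0.048, and leaving out LF 18 it was 0.26. bta-miR-23b-3p had -0.0095 (SE 0.16), a difference whose sign changed with the test used. The interval of bta-miR-23b-5p, -0.42 to 0.81 on the log2 scale, still held a fold change of 1.5. So did that of bta-miR-27a-5p, fitted without the filter, at -0.93 to 0.52, with a log2 fold change of -0.21.

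**Figure D2:**
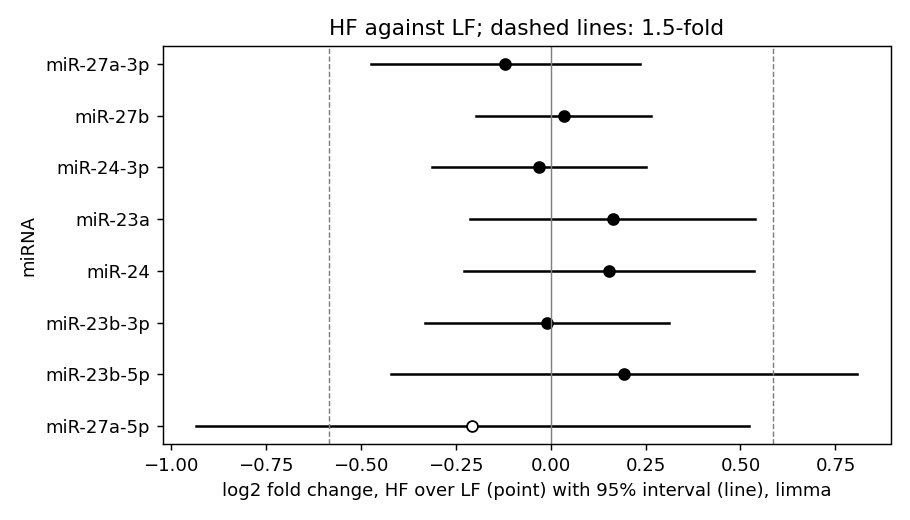
Log2 fold change of HF over LF (horizontal axis) for each miRNA, with the 95% interval of the limma fit. Filled points were fitted after the filter on low values and the open point without it. All 8 intervals hold 0, and those of the 6 most abundant lie inside the dashed lines at a 1.5-fold change.

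The a and b clusters were compared within a library by ratios of their members, in which the scaling of the library cancels. bta-miR-23a was above bta-miR-23b-3p in 20 of 20 bulls, by between 2.24-fold (HF 2) and 4.56-fold (HF 10), with a median of 2.96-fold. bta-miR-27a-3p was between 0.949 (HF 17) and 2.03 (HF 15) times bta-miR-27b, with a median of 1.72. Both ratios were thus on the side of the a cluster, and that of miR-23 was the larger. Reads of the a and b members of a family differ by very few bases, and how the counting divided reads that match both is not given in the sources used here. The split between a and b is uncertain to that extent.

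Neither ratio differed between HF and LF beyond the spread between bulls. On the log2(normalized count + 1) scale, the HF bulls had a ratio of bta-miR-23a to bta-miR-23b-3p of 1.69 ± 0.30 and the LF bulls of 1.51 ± 0.23 (SD, n = 10 each). The difference was 0.17 (SE 0.12, two-sided permutation test, p = 0.16, adjusted p = 0.55 over the 7 ratios tested). The ratio of bta-miR-27a-3p to bta-miR-27b was 0.60 ± 0.35 in HF and 0.76 ± 0.19 in LF (SD, n = 10 each). Its difference was -0.15 (SE 0.12, permutation p = 0.24, adjusted p = 0.55). The larger spread in HF included HF 17, the only bull with bta-miR-27b above bta-miR-27a-3p.

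Within each cluster, the miR-27 member far exceeded the miR-23 member. bta-miR-27a-3p was 26.0 (HF 14) to 82.1 (LF 1) times bta-miR-23a, with a median of 52.5. bta-miR-27b was 63.8 (LF 18) to 144 (HF 10) times bta-miR-23b-3p, with a median of 100.07. The excess was larger in the b cluster in 20 of 20 bulls, by a log2 difference of 0.92 ± 0.40 (SD, n = 20), or 1.89-fold. This is the same quantity as the gap between the a to b ratios of miR-23 and of miR-27 given above, seen from within the clusters, and is no further evidence. Between HF and LF, the ratio of bta-miR-27a-3p to bta-miR-23a differed by -0.28 (SE 0.21, permutation p = 0.19, adjusted p = 0.55) on the log2 scale. That of bta-miR-27b to bta-miR-23b-3p differed by 0.044 (SE 0.14, permutation p = 0.75, adjusted p = 0.83). Different miRNAs are ligated and amplified with different efficiency in small RNA libraries, so ratios between miRNAs are ratios of reads, and their relation to molecules was not tested.

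**Figure D3:**
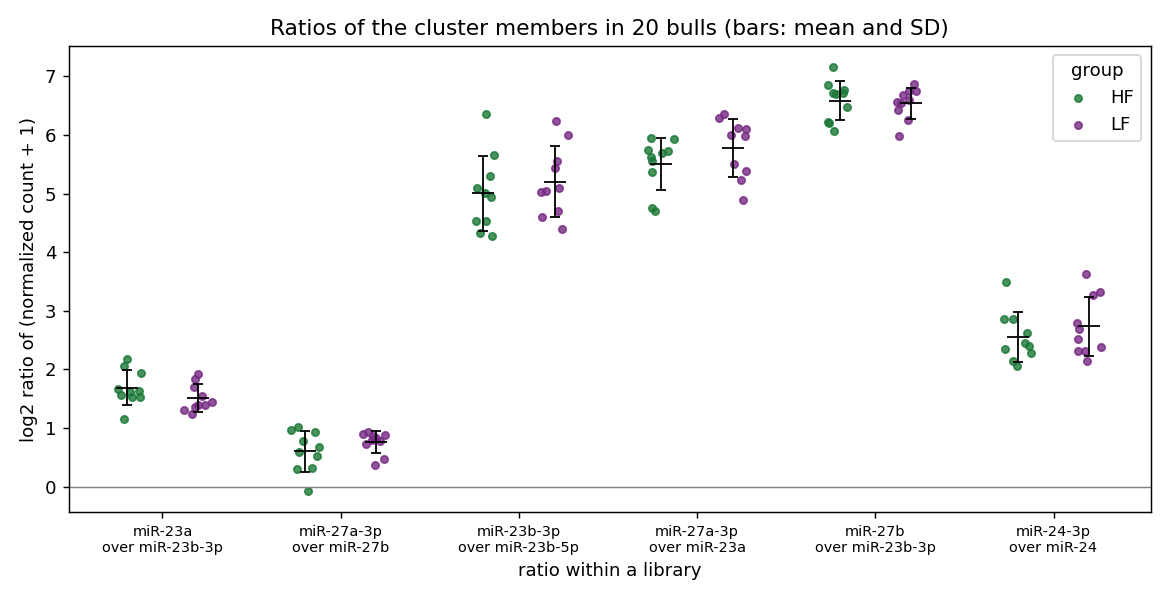
Log2 ratio of normalized count + 1 between cluster members (vertical axis) in each HF and LF bull, with the mean and SD of each group. The miR-23a ratio lies above 0 in 20 of 20 bulls and the miR-27a ratio in 19 of 20, and HF and LF overlap in all 6 ratios shown.

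Both arms had a row for the miR-23b and miR-27a hairpins, and in both the 3p arm held nearly all reads. Of the 626762 reads on the miR-27a hairpin in the 20 libraries, 28 were of the 5p arm, which is 0.0045% (95% exact binomial interval 0.0030 to 0.0065%). Of the 4042 recovered reads on the miR-23b hairpin, 88 were of the 5p arm, which is 2.18% (exact interval 1.75 to 2.68%). The share of the 5p arm was thus far higher in miR-23b, with intervals that did not overlap. These intervals cover counting error only, since copies made by PCR are not independent molecules. The 5p arm of miR-27a made up 0.0048% of the hairpin's reads in HF and 0.0041% in LF, with exact intervals of 0.0027 to 0.0077% and 0.0021 to 0.0072%. For miR-23b the 5p shares were 2.24% and 2.10%. The log2 ratio of the 3p to the 5p arm of miR-23b was 5.00 ± 0.65 (SD, n = 10) in HF and 5.20 ± 0.60 in LF, a difference of -0.20 (SE 0.28, permutation p = 0.47, adjusted p = 0.66). The corresponding difference for miR-27a was 0.087 (SE 0.39, permutation p = 0.83, adjusted p = 0.83), and its sign changed with the pseudocount. The miR-27a ratio rests on 28 reads of the 5p arm.

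Recovered values of bta-miR-23b-3p fell between whole reads in 9 libraries and those of bta-miR-23b-5p in 12, at a tolerance of 0.05 reads. Those of the other 6 members were whole in 20 of 20 libraries. bta-miR-24-3p was 4.19 (HF 2) to 12.5 (LF 4) times bta-miR-24, with a median of 5.60, and this ratio differed between HF and LF by -0.18 on the log2 scale (SE 0.21, permutation p = 0.39, adjusted p = 0.66).

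Whether members of a cluster vary together over bulls was examined by correlating log2(normalized count + 1) over the 20 bulls for 13 pairs, with permutation p-values adjusted over the 13. The a and b members of miR-27 moved together, and those of miR-23 did so through a pair of bulls. For bta-miR-27a-3p with bta-miR-27b, Pearson's r was 0.73 (permutation p = 0.00014, adjusted p = 0.0018) and Spearman's rho was 0.63 (permutation p = 0.0031, adjusted p = 0.040). Without HF 17 and LF 11, which had the most extreme bta-miR-27a-3p, r was 0.59 (permutation p = 0.0094). Within HF r was 0.60 and within LF it was 0.91, over 10 bulls each. These 2 libraries were also the shallowest, and bta-miR-27a-3p rose with the log2 of the reads (r = 0.63, permutation p = 0.0041, adjusted p = 0.033 over the 8 members, and rho = 0.48, permutation p = 0.034, adjusted p = 0.13). Without HF 17 and LF 11 the correlation with reads was 0.11 (permutation p = 0.65), so it rested on them. For bta-miR-27b the correlation with reads was 0.46 (permutation p = 0.044, adjusted p = 0.17), and 0.17 (permutation p = 0.50) without HF 17 and LF 11. Over the 17 libraries of at least 500000 reads, r between bta-miR-27a-3p and bta-miR-27b was 0.60 (permutation p = 0.011).

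For bta-miR-23a with bta-miR-23b-3p, r was 0.72 (permutation p = 0.00073, adjusted p = 0.0047) and rho was 0.51 (permutation p = 0.024, adjusted p = 0.15). Here the relation rested on HF 14 and LF 18, the bulls that were high in both. Without them r was 0.26 (permutation p = 0.30). Within HF r was 0.69 and within LF it was 0.82, each with 1 of these bulls.

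Members of the same cluster were not shown to move together. For bta-miR-27a-3p with bta-miR-23a, r was 0.26 (permutation p = 0.27, adjusted p = 0.38) and rho was 0.34 (permutation p = 0.15, adjusted p = 0.27), and r was 0.17 (permutation p = 0.49) without HF 17 and LF 11. For bta-miR-27b with bta-miR-23b-3p, r was 0.23 (permutation p = 0.32, adjusted p = 0.38) and rho was 0.14 (permutation p = 0.55, adjusted p = 0.70). Without LF 11 and HF 10, r was 0.30 (permutation p = 0.23), and over the 17 deeper libraries it was -0.0045 (permutation p = 0.99). In HF 14 and LF 18, both miR-23 members were high. There bta-miR-27a-3p was 28924 and 26562, against its median of 26849. bta-miR-27b was 18054 and 14989, against its median of 15645. Both miR-27 members were thus above their median in HF 14, where bta-miR-27a-3p was the 2nd highest of HF, and below it in LF 18. Whether the correlations within a family and within a cluster differ was not tested. The a and b members of a family could also share reads through the counting, and whether this bears on their correlation was not tested.

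**Figure D4:**
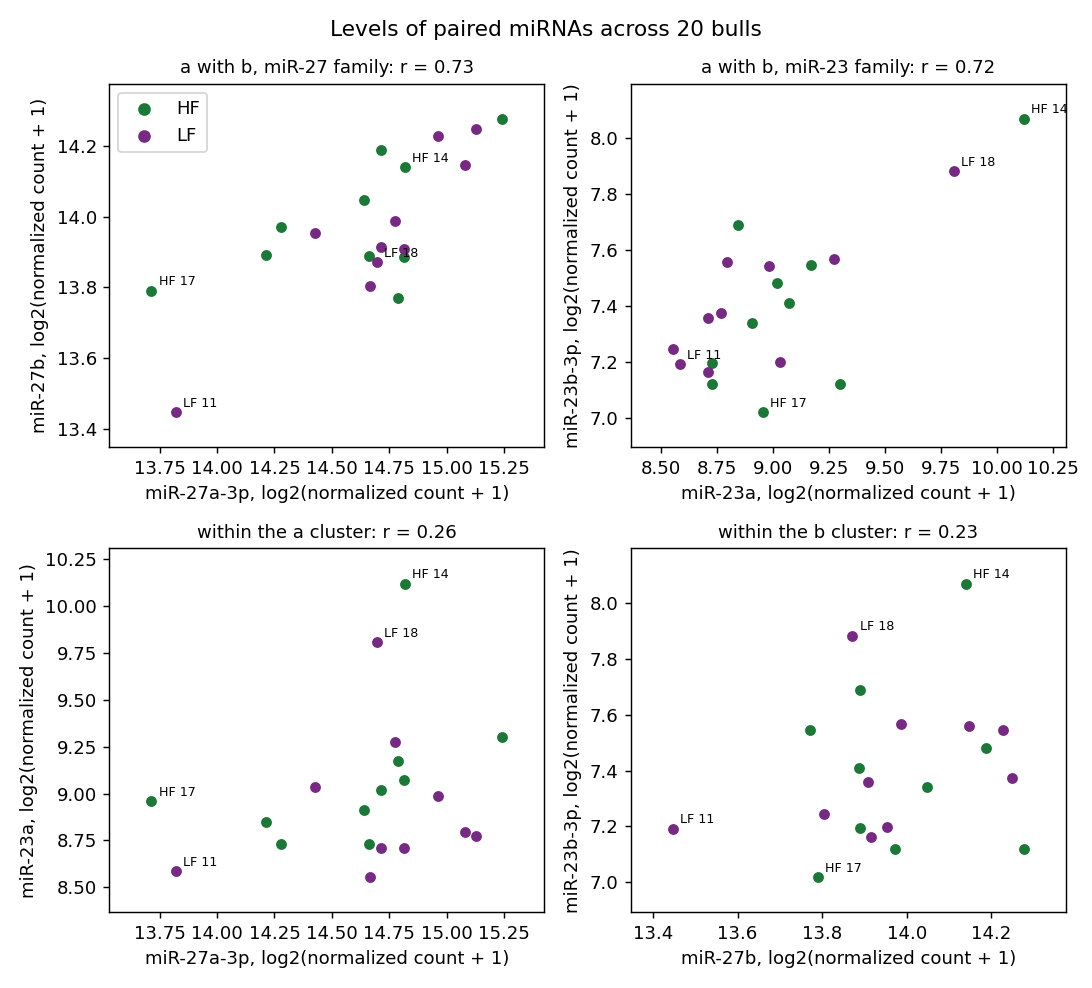
Levels of paired miRNAs, as log2(normalized count + 1) on both axes, with 1 point per HF or LF bull. The a and b members of miR-27 (r = 0.73) and of miR-23 (r = 0.72) vary together, the latter through HF 14 and LF 18, and miR-27 with miR-23 of the same cluster is more scattered (r = 0.26 in the a and 0.23 in the b cluster).

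The row bta-miR-24 ran opposite to bta-miR-23a, with r = -0.57 (permutation p = 0.011, adjusted p = 0.047) and rho = -0.45 (permutation p = 0.049, adjusted p = 0.21). HF 14 had the highest bta-miR-23a and the lowest bta-miR-24, and without it r was -0.34 (permutation p = 0.15). Without both HF 14 and LF 18 it was -0.36 (permutation p = 0.14), and without LF 18 alone it was -0.61 (permutation p = 0.0080). The low p-value thus depended on HF 14, while r stayed negative without it. Within HF r was -0.80, and within LF, which does not hold HF 14, it was -0.44. Of the 9 pairs that involve miR-24, this was the only one with an adjusted p-value under 0.05, and the other 8 had r between -0.32 and 0.35 with permutation p-values of 0.13 to 0.91. bta-miR-24-3p and bta-miR-24 themselves had r = -0.028 (permutation p = 0.91, adjusted p = 0.91) and rho = -0.090 (permutation p = 0.70, adjusted p = 0.76). Without LF 18 and LF 5 their r was -0.012 (permutation p = 0.96).

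The members were also placed among the 159 other miRNAs with a mean normalized count of at least 100, in order of Pearson's r with a member over the 20 bulls, as a description. For bta-miR-27b, bta-miR-27a-3p was the 1st of 159. It was followed by bta-miR-217 (r = 0.70), bta-miR-6524 (r = 0.56) and bta-miR-30a-5p (r = 0.54), against a median r of 0.13. For bta-miR-27a-3p, bta-miR-27b came 4th, after bta-miR-199a-3p (r = 0.75), bta-miR-199c (r = 0.75) and bta-miR-29a (r = 0.74), against a median of 0.24. bta-miR-199a-3p is a member of the endothelial and stromal list and had a normalized count of 129 ± 65.4 (SD, n = 20). bta-miR-199c stood at 129 ± 65.4 as well and reads shared between these rows cannot be told apart. The cluster partners stood far lower, with bta-miR-23a 77th for bta-miR-27a-3p and bta-miR-23b-3p 56th for bta-miR-27b. In turn, bta-miR-23b-3p was the 3rd of 159 for bta-miR-23a, and bta-miR-23a the 2nd for bta-miR-23b-3p. For bta-miR-24, bta-miR-23a was the last of the 159. The libraries share depth and scaling across all of these values.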

How the data were processed

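Small RNA libraries of spermatozoa from 20 Holstein-Friesian bulls, 10 HF and 10 LF by their labels, were used, with 1 library per bull. The authors clipped adapters with Cutadapt (version 2.6 per the labels), kept reads of 15 to 28 bases, filtered out reads of other short RNAs, aligned to ARS-UCD1.2 and counted mature miRNAs with miRDeep2. Each deposited value is a signal, namely counts divided by library size and a TMM factor. The design allowed for raw counts, and since the values are normalized, limma (3.58.1, variance trend, R 4.3.3) on log2(normalized count + 1) was the main test. miRNAs with a value under 1 in at least 10 bulls were removed, and p-values were adjusted by Benjamini-Hochberg over the 435 left. A read was taken as the commonest low value of a library, which made 95.0% of all values above 0 whole within 0.05 reads. Reads were rounded and tested with edgeR (4.0.16) and DESeq2 (1.42.0). Single values were tested by two-sided permutation with 100000 resamples (scipy 1.17.1, numpy 2.4.6). The tests were run on simulated data first. Of the libraries, 0 pairs were identical. The members and lists were chosen with earlier results of these data known. Named are all 8 members and the 3 miRNAs most like bta-miR-27a-3p and bta-miR-27b, while a planned search by shared seed sequence was not made because mature sequences were not used here. The ratios of miR-27 to miR-23 and of bta-miR-24-3p to bta-miR-24 were added after seeing the data. With 1 library per bull, p-values weigh differences against the spread between bulls. Spread that comes from the library itself cannot be told apart from it.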

Additional observations from a re-analysis of the deposited data

Results flagged for a closer look

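The levels and ratios of the members gave 30 sets of 10 bulls, and 5 of these held a bull that stood apart by Dixon's criterion. Independent sets of normal values would give about 1.5 by chance. The levels were taken without a log and the ratios reuse them, so this number is only a rough guide. All 5 were levels at the high end, and no log2 ratio was among them. bta-miR-23a was 1112 in HF 14, against 630 in the next HF bull, and 896 in LF 18, against 618 in the next LF bull. bta-miR-23b-3p was 235 in LF 18, against 189 in the next. bta-miR-24 was 364 in HF 2, against 248 in the next, just past the criterion. As a share of the library it was 0.0295% in HF 2, against 0.0262% in HF 17, the next HF bull. bta-miR-27a-5p was 3.80 in HF 14, against 2.00 in the next, which rests on 5 reads. The cause of these values was not tested.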

How the results depend on the processing

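In 0 of the settings tried was a member past the thresholds between HF and LF. The number of all miRNAs past them was 9 in the main test and 4 with a pseudocount of 5 or with a value of at least 1 required in every bull, 15 with no filter, 11 by edgeR's likelihood ratio test and by DESeq2, 13 by edgeR's quasi-likelihood test, 10 with the TMM factor undone and 7 to 15 with each bull left out in turn (15 without HF 6, and 14 without LF 1, LF 11 or LF 13). Differences near 0 changed sign. The log2 difference of the miR-27a arm ratio was -0.051 with a pseudocount of 5, -0.16 on recovered reads + 0.5, -0.023 without the 3 libraries under 500000 reads, and -0.13 to 0.25 with each bull left out. That of bta-miR-27b to bta-miR-23b-3p was -0.011 without those libraries and -0.020 to 0.10 with each bull left out. The log2 fold change of bta-miR-23b-3p was 0.043 (likelihood ratio), 0.036 (quasi-likelihood) and 0.012 (DESeq2), and -0.084 to 0.043 with each bull left out. That of bta-miR-27b was -0.028 with the TMM factor undone, -0.026 without the shallow libraries and -0.022 to 0.067 with each bull left out. That of bta-miR-24-3p was 0.033 without the shallow libraries, 0.022 without both HF 14 and LF 18, and -0.077 to 0.024 with each bull left out. With the TMM factor undone, the correlation of bta-miR-27b with bta-miR-24-3p was 0.082, that of bta-miR-24-3p with bta-miR-24 was 0.014, and that of bta-miR-23b-3p with bta-miR-24-3p was 0.50, with a permutation p of 0.021. Without the shallow libraries, that of bta-miR-27b with bta-miR-23b-3p was -0.0045. With each bull left out, the correlation of bta-miR-27a-3p with bta-miR-24-3p ran from -0.53 (without HF 17, permutation p = 0.017) to -0.17, that of bta-miR-27b with bta-miR-24-3p from -0.26 to 0.052, that of bta-miR-23a with bta-miR-24 from -0.62 to -0.34 (without HF 14), that of bta-miR-23b-3p with bta-miR-24 from -0.43 to 0.087, and that of bta-miR-24-3p with bta-miR-24 from -0.15 to 0.090. The cause of these changes was not tested. The settings without the shallow libraries and without HF 14 and LF 18 were chosen after seeing the data. In all, 650 other values kept their direction and their side of the threshold. No paired analysis was possible because HF and LF are different bulls with 1 library each, and the sources used here match none of them. The 5p arms of miR-27a and miR-23b rest on 28 and 88 reads over 20 libraries, which limits the precision of their ratios.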
